A study of Mus musculus with 48 samples.

Results

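The enzymes of the pentose phosphate pathway were examined in mouse liver through 6 genes, G6pdx, Pgls, Pgd, Tkt, Taldo1 and H6pd. Their probes were found by the gene name that the array gives each probe, a rule that uses no measured value, although the pathway itself was taken up with earlier results of these data known. They are 6 of the 37074 gene names on the array. All 6 were among the 20486 genes kept, those with a probe that stood well above background in 5 or more of the 6 mice of some group. The 6 genes had 13 probes, of which 10 passed that filter, and each gene is described by its brightest probe on average, which was well above background on all 48 arrays. Liver RNA came from 48 male mice in 8 groups of 6, with 1 array per mouse. p110αhep+/+ mice (labelled LWT) carry floxed alleles of p110α, the catalytic subunit of the insulin-responsive PI 3-kinase α, and no Cre. p110αhep-/- mice (labelled LKO) carry the same alleles and a Cre driven by the albumin promoter, which deletes p110α in hepatocytes so the other cells of the liver keep the gene. Diets began at 12 weeks of age and lasted 12 weeks, either a control diet (CTRL) or a high-fat diet (HFD) with 60% of its energy from fat. Mice were fed (FED) or fasted for 24 h (FASTED), and all were killed at ZT16, which lies in the dark phase.

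The probes used lie, by the positions the array files give on build mm9, for G6pdx at chrX:71654949-71655008 (minus strand), Pgls at chr8:74120108-74120166 (plus strand), Pgd at chr4:148524293-148524352 (minus strand), Tkt at chr14:31386641-31386700 (plus strand), Taldo1 at chr7:148588764-148588823 (plus strand) and H6pd at chr4:149353626-149353685 (minus strand). The part of the gene model at these positions was not looked up, since no genome of that build was used here.

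The pentose phosphate pathway runs in the cytosol from glucose 6-phosphate, the first product of glucose phosphorylation. Its oxidative branch yields NADPH, the reducing agent for fatty acid synthesis and for glutathione recycling, and ends in ribulose 5-phosphate; its non-oxidative branch joins the pentose phosphates back to glycolysis. In the liver, the enzymes of the pathway are known to be induced by carbohydrate refeeding together with those of fatty acid synthesis. G6pdx encodes glucose-6-phosphate dehydrogenase, the first and committed step of the oxidative branch. Pgls encodes 6-phosphogluconolactonase, which hydrolyses the lactone made by that step, and Pgd encodes 6-phosphogluconate dehydrogenase, which makes the next NADPH. Tkt (transketolase) and Taldo1 (transaldolase 1) move carbon units between sugar phosphates in the non-oxidative branch. H6pd encodes hexose-6-phosphate dehydrogenase, which carries out the first steps of an oxidative branch in the lumen of the endoplasmic reticulum, where its NADPH serves 11β-hydroxysteroid dehydrogenase 1.

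The promoters of the 4 genes with the widest spans between groups are shown because Pgd, Tkt and Taldo1 passed most of the same tests and G6pdx followed them less closely. Each sequence is the 250 bases before the RefSeq start of the gene (build GRCm38.p6), read 5′ to 3′ on the strand of the gene, with capitals at the matches to the motifs given after them.
G6pdx, chrX:74428881-74429130, minus strand: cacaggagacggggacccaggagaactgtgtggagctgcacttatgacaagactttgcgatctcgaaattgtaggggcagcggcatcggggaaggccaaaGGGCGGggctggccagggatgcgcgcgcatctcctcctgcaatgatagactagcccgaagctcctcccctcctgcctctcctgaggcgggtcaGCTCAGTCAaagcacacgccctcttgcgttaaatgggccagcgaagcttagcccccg
Pgd, chr4:149166706-149166955, minus strand: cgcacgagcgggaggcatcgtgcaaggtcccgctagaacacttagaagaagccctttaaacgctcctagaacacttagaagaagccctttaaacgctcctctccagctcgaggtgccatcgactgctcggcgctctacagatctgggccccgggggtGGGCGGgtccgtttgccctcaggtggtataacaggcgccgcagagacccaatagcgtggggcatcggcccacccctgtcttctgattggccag
Tkt, chr14:30548881-30549130, plus strand: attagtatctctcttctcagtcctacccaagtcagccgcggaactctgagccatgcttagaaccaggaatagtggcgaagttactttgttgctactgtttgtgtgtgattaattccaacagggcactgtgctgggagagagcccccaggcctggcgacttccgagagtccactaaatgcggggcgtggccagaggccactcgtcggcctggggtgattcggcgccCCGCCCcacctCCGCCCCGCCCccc
Taldo1, chr7:141391910-141392159, plus strand: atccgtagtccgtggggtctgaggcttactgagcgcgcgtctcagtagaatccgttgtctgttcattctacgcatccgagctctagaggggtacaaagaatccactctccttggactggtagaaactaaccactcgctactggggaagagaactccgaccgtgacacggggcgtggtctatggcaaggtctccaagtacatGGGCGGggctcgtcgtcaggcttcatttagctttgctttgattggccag

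These windows, extended to 50 bases after the start, were searched on both strands for 4 motifs. The GC box, GGGCGG, is bound by Sp1 and related factors. It occurred once in G6pdx, Taldo1, Pgls and the first of the 2 starts listed for Pgd. It stood at 5 places in Tkt and nowhere in H6pd or the second Pgd start. Of the 32851 promoters of the same length in the table, 35.7% held it. The windows with a GC box had 56.7% to 67.3% G and C. H6pd had 39.3% and the second Pgd start 51.3%, and the median of all promoters was 52.7%. The part of base composition in these matches was not tested. The core of the antioxidant response element, TGACNNNGC, which is bound by NRF2, was found in G6pdx on the opposite strand (TGACTGAGC, read from 57 bases before the start; it stands in the printed strand as GCTCAGTCA) and in the second of the 2 starts listed for Pgd, against 12.4% of all promoters. None of the windows held the E-box CACGTG (7.15% of promoters) or the letters TCACNCCAC (1.24%). No motif overlapped a different motif, and 2 of the GC boxes of Tkt share a base. Pgd and Taldo1 both end in the same 11 bases just before the start, tgattggccag, a run that was picked out after the sequences were seen. It occurs anywhere in 88 of the promoters (0.268%) and at this same place in 2 of them. Runs as long as this were also shared at other places by other pairs of the 6 genes. A match of letters describes the sequence and is no evidence of binding.

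On all 48 arrays, 52.3% to 59.3% of spots were well above background and none was saturated. The weights that limma gave the arrays ran from 0.354 to 1.72, and fed p110αhep-/- mouse 3 on HFD stood lowest (0.354, next lowest 0.589). In its group this mouse had the lowest Tkt (12.82), Taldo1 and Pgls and the highest G6pdx (9.59), and calls that turn on it are named beside them. The arrays lay on 6 slides, each of which held 1 mouse from each group. Washing was done in 2 batches, 3 slides at a time. The only probe for Pik3ca, the gene of p110α, was not lower in any of the 4 comparisons of genotype and rose in 3 of them (log2 fold change 0.39, 0.58 and 0.25, adjusted p between 2.99e-07 and 0.0172), so it gave no check of the deletion, and every difference between genotypes takes the libraries as labelled. All 8 hepatocyte markers examined were well above background on every array. In whole liver, fewer cells of a type and less RNA per cell cannot be told apart.

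Over the 12 comparisons of 2 groups that differ in 1 factor, 45 of 72 tests of the 6 genes passed an adjusted p of 0.05 or less (limma, Benjamini–Hochberg over all probes kept), when 25.3% of the tests of all genes did so. Pgd, Tkt and Taldo1 each passed in 10 of the 12, G6pdx in 6, Pgls in 5 and H6pd in 4. All 45 had the same sign in both washing batches, where fits on 3 mice per group kept 30 of the calls in the first and 30 in the second, and 39 had the same direction on all 6 slides, with at least 5 of 6 for the others. Each group enters 3 of the 12 comparisons, so these share mice and are not independent of each other. In the text, a gene rose or fell where it passed this test; values are log2 intensity, differences are log2 fold changes with their standard error (SE), and n is 6 mice in each group.

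In fed mice on either diet, Pgd, Tkt and Taldo1 were lower and H6pd was higher in p110αhep-/- mice. In fed mice on CTRL, 5 of the 6 genes passed the test, 4 lower and 1 higher in p110αhep-/- mice, when 21.5% of all genes did so. In fed mice on HFD, 4 passed, 3 lower and 1 higher, against 32.9% of all genes. In fasted mice on CTRL, 3 were lower (background 24.8%), and in fasted mice on HFD 4 were lower (background 36.8%). In the comparisons of diet, in p110αhep+/+ mice, 4 of 6 passed in the fed state (3 higher, 1 lower, background 24.1%) and 4 in the fasted state, all higher (background 15.9%). In p110αhep-/- mice, 3 passed in the fed state (1 higher, 2 lower, background 12.2%) and 0 in the fasted state (background 10.8%), where no gene of the 6 had an unadjusted p under 0.05. Fasting lowered Pgd, Tkt and Taldo1 in both genotypes and on both diets. It changed 5 genes in p110αhep+/+ mice on CTRL (4 lower, 1 higher, background 32.5%), 4 in p110αhep-/- mice on CTRL, all lower (background 35.4%), 5 in p110αhep+/+ mice on HFD (4 lower, 1 higher, background 28.4%) and 4 in p110αhep-/- mice on HFD, all lower (background 28.5%).

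**Figure D1:**
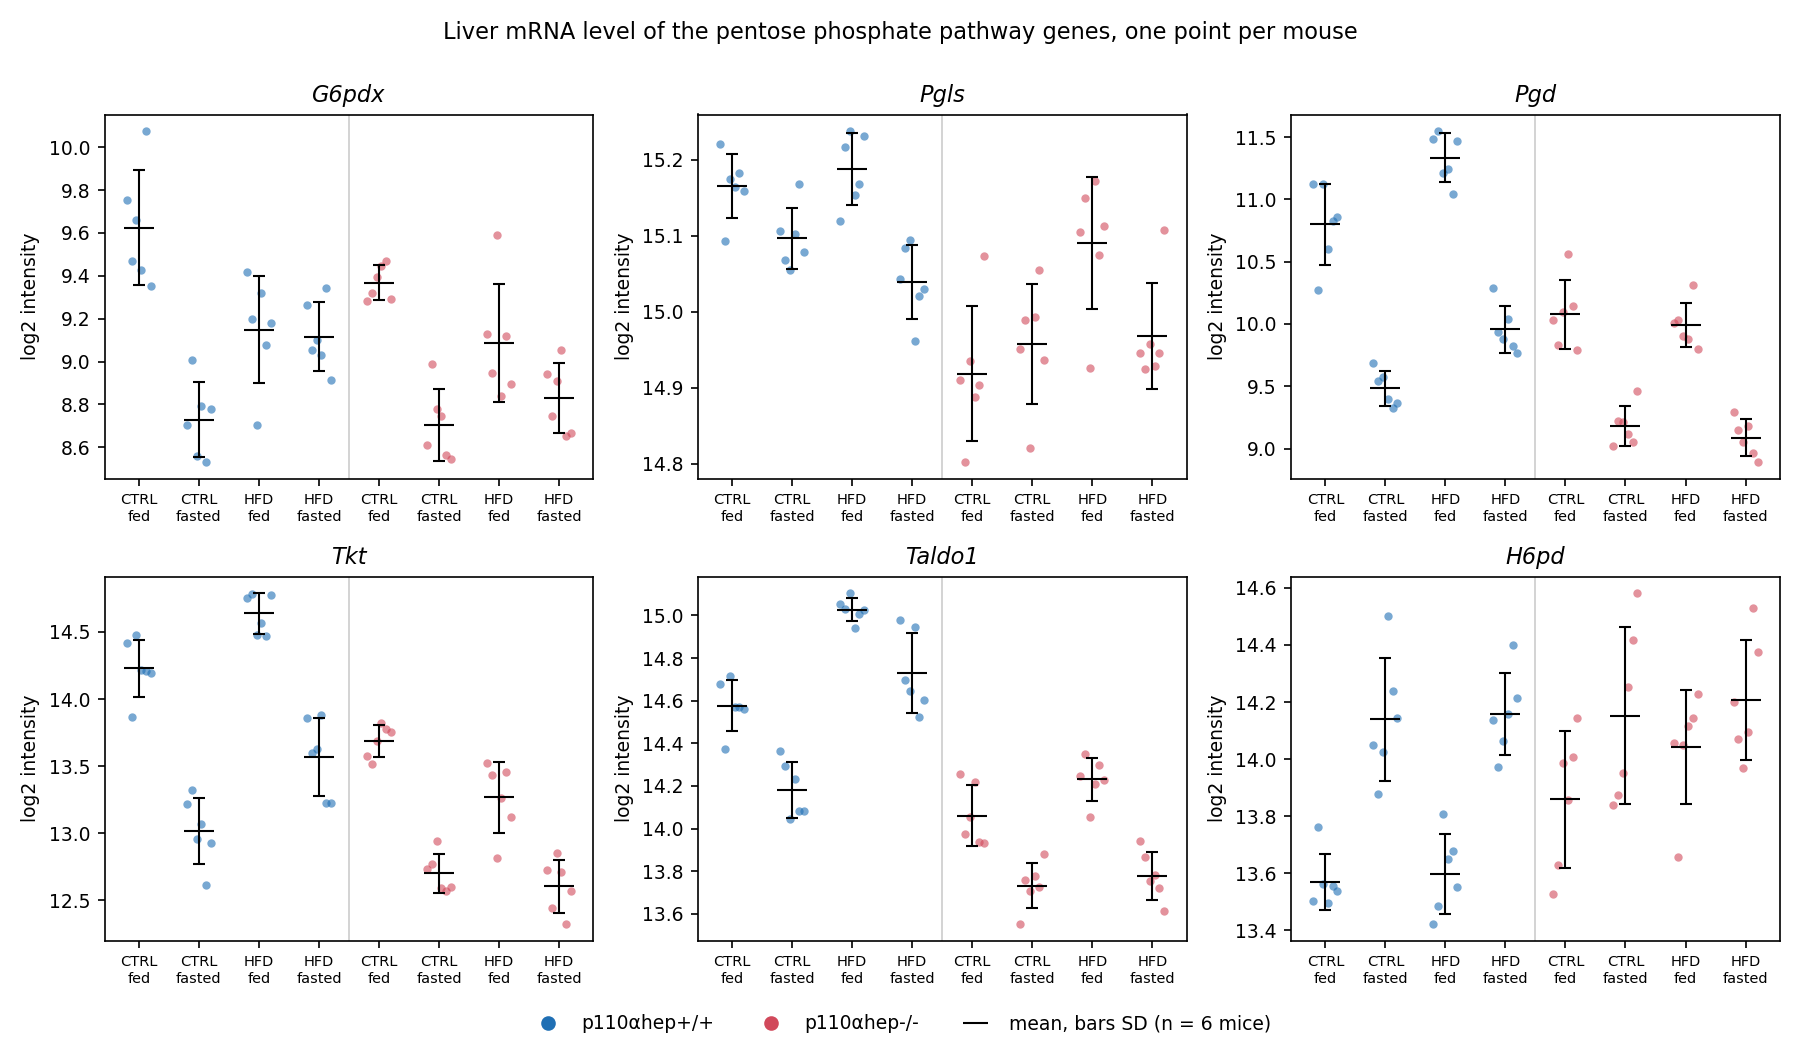
Log2 intensity of each gene (vertical axes, scaled for each gene) in the 48 mice, by diet and nutritional state, with p110αhep+/+ mice in blue and p110αhep-/- mice in red; bars are the mean and SD of 6 mice. The 6 fed p110αhep+/+ mice on HFD have Pgd between 11.04 and 11.55, above every p110αhep-/- mouse.

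G6pdx, the entry step, followed diet and fasting and passed only 1 of the 4 comparisons of genotype. The lowest, median and highest of the 6 mice were 9.35, 9.57 and 10.08 in fed p110αhep+/+ mice on CTRL and 8.53, 8.74 and 9.01 after fasting, and these groups did not overlap. On HFD, the same genotype had 8.70, 9.19 and 9.42 when fed and 8.91, 9.08 and 9.34 when fasted, and the range of the fasted mice lay within that of the fed mice. Fasting lowered G6pdx by 1.92 times on CTRL (log2 fold change -0.94 ± 0.10 (SE), adjusted p = 1.2e-09) and left a difference of -0.067 on HFD (adjusted p = 0.674, 95% interval -0.27 to 0.13).

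The 2 fasting responses differed from each other: the diet by fasting interaction in p110αhep+/+ mice was 0.87 ± 0.14 (SE), adjusted p = 0.000287, above 0 on 6 of 6 slides, and G6pdx was the only one of the 6 genes to pass it (background 2.36%). HFD lowered G6pdx in fed p110αhep+/+ mice (-0.48 ± 0.10 (SE), adjusted p = 0.000412) and raised it in fasted ones (0.40 ± 0.10 (SE), adjusted p = 0.00573). The interaction passed in every fit that left out 1 mouse (24 of 24, 0.77 to 0.94); within the washing batches, of 3 mice per group, the same difference of means was 0.74 and 0.99, but the interaction did not pass in the fit of either batch (adjusted p = 0.219 and 0.0564). Nor did the rise in fasted mice in either batch (0.13 and 0.0989) or the fall in fed mice in the first (0.0958).

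In p110αhep-/- mice the pattern had the same signs. G6pdx was 9.28, 9.36 and 9.47 in fed mice on CTRL and 8.54, 8.68 and 8.99 in fasted ones, a fall of 1.57 times (-0.65 ± 0.10 (SE), adjusted p = 2.81e-06) with no overlap. On HFD it was 8.84, 9.03 and 9.59 fed and 8.65, 8.83 and 9.05 fasted, ranges that overlapped. The diet by fasting interaction in this genotype was 0.46 ± 0.15 (SE), adjusted p = 0.0615, which missed the threshold (no gene of the 6 passed, background 7.90%) and passed it in 5 other fits (adjusted p between 0.0317 and 0.0485): with slide as a block, with a replicate block, with only the groups compared, with normexp background correction and with the processed signal. It also passed without fasted CTRL mouse 2 (0.0336), fasted HFD mouse 5 (0.0494) or fed HFD mouse 3 (0.03).

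Between genotypes, G6pdx was lower in fasted p110αhep-/- mice on HFD by 1.21 times (-0.27 ± 0.11 (SE), adjusted p = 0.0456), and this call was kept in 3 of 12 fits that left out 1 mouse of the 2 groups (adjusted p up to 0.0953); it was lost without any 1 of p110αhep+/+ mice 1 to 5 or p110αhep-/- mice 2, 3, 5 or 6. It was also lost with the processed signal (0.0619), with normexp background correction (0.0545), with no filter on dim probes (0.0663) and within either washing batch (0.31 and 0.274). In fed mice on CTRL the difference was -0.28 ± 0.10 (SE), adjusted p = 0.0573, lower on 6 of 6 slides, and it passed the threshold without p110αhep+/+ mouse 2, 4 or 6 (adjusted p 0.034, 0.0496 and 0.0206), with slide as a block (0.036), with normexp background correction (0.0467) and over the probes above background on all arrays (0.0455). The fall of G6pdx with HFD in fed p110αhep-/- mice (-0.35 ± 0.11 (SE), adjusted p = 0.0314) was kept in 6 of 12 such fits and lost without CTRL mouse 3, 4 or 5 or HFD mouse 2, 4 or 6 (adjusted p up to 0.104). With no array weights that fall was -0.28 (adjusted p = 0.114), and with no filter on dim probes and within the 2 washing batches it did not pass either (0.0827, 0.181 and 0.285).

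Pgls, which opens the lactone ring, varied least, with 14.92 and 15.19 as the lowest and highest group means, a span of 1.21-fold. By its brightest probe it was 1.19 times lower in fed p110αhep-/- mice than in fed p110αhep+/+ mice on CTRL (-0.25 ± 0.041 (SE), adjusted p = 1.59e-05), with mice at 14.80, 14.91 and 15.07 against 15.09, 15.17 and 15.22 and no overlap. It was also lower in fasted p110αhep-/- mice on CTRL (-0.15, adjusted p = 0.00412), higher with HFD in fed p110αhep-/- mice (0.19, 0.00236), and lower with fasting on HFD in p110αhep+/+ (-0.15, 0.00258) and p110αhep-/- mice (-0.15, 0.0107).

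The 3 probes for Pgls, all well above background on every array, did not move alike. The brightest and the second probe had the same sign in 8 of the 18 comparisons and passed together in 1 of them, the rise with HFD in fed p110αhep-/- mice; another shared the sign of the brightest in 7 and passed with it in none. In fed mice on HFD both other probes were higher in p110αhep-/- mice (0.17, adjusted p = 0.00596, and 0.34, 0.000866), where the brightest was -0.079 (adjusted p = 0.139). The calls for Pgls therefore differ between probes, and with median scaling of the arrays 4 of the 5 calls of the brightest probe were lost, all but the difference between genotypes in fed mice on CTRL. The same 4 were lost with the processed signal and within the second washing batch, 3 of them when only the groups compared were fitted, and all 5 within the first batch. With the median over its probes the difference between genotypes in fed mice on CTRL was -0.082 and did not pass (adjusted p = 0.247). In that comparison the dimmest of the 3 probes had the opposite sign (0.076, adjusted p = 0.548). The diet by fasting interaction of Pgls in p110αhep-/- mice (-0.17, adjusted p = 0.0751) passed without fed CTRL mouse 6 (0.0362), fasted HFD mouse 6 (0.038) or fasted CTRL mouse 3 (0.0224), and with the processed signal (-0.23, adjusted p = 0.0194). Its genotype by diet interaction in fed mice, not called as reported, passed with the processed signal (0.0361), with normexp background correction (0.0426) and with the median over its probes (0.0323). Fasting in p110αhep-/- mice on CTRL and HFD in fasted p110αhep+/+ mice, also not called, passed with the processed signal (0.14, 0.00949, and -0.18, 0.0022) and with median scaling (0.13, 0.0192, and -0.15, 0.012), and the first of these with the median over its probes (0.13, 0.0374).

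Pgd, the second NADPH-producing step, had the widest span of the 6 genes, 4.75-fold between fed p110αhep+/+ mice on HFD and fasted p110αhep-/- mice on HFD. The lowest, median and highest fed p110αhep+/+ mice on HFD were at 11.04, 11.36 and 11.55, and fed p110αhep-/- mice on HFD were at 9.80, 9.96 and 10.31. These groups did not overlap, and Pgd was 2.51 times lower in p110αhep-/- mice (-1.33 ± 0.11 (SE), adjusted p = 1.67e-12).

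On CTRL, fed p110αhep+/+ mice had 10.27, 10.84 and 11.13 and fed p110αhep-/- mice had 9.79, 10.06 and 10.56, ranges that overlapped at 1 end. The difference was 1.72 times (-0.78 ± 0.11 (SE), adjusted p = 1.28e-06), lower on 6 of 6 slides. In fasted mice Pgd was 1.82 times lower in p110αhep-/- mice on HFD (-0.86 ± 0.12 (SE), adjusted p = 1.27e-07), without overlap, and 1.25 times lower on CTRL (-0.32 ± 0.11 (SE), adjusted p = 0.025). The last call was kept in 8 of 12 fits that left out 1 mouse and lost without p110αhep+/+ mouse 1, 2 or 3 or p110αhep-/- mouse 1 (adjusted p up to 0.0744). It was also lost with no filter on dim probes (0.0599), with the washing batch not corrected (0.0608), without array weights (0.0681) and within either washing batch (0.0582 and 0.32).

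Fasting lowered Pgd in all 4 settings, by 2.64 times in p110αhep+/+ mice on CTRL (-1.40 ± 0.11 (SE), adjusted p = 1.08e-13), 2.6 times in p110αhep+/+ mice on HFD (-1.38 ± 0.10 (SE), adjusted p = 5.82e-14), 1.92 times in p110αhep-/- mice on CTRL (-0.94 ± 0.11 (SE), adjusted p = 4.63e-09) and 1.89 times in p110αhep-/- mice on HFD (-0.92 ± 0.12 (SE), adjusted p = 1.93e-07). Fed and fasted mice did not overlap in any of the 4. The fall was smaller in p110αhep-/- mice by 0.46 on CTRL and 0.46 on HFD, but the genotype by fasting interactions missed the threshold (adjusted p = 0.0817 and 0.103, 95% intervals 0.15 to 0.77 and 0.14 to 0.79). Both passed with normexp background correction (adjusted p = 0.0479 and 0.0475), and the first passed without fed CTRL p110αhep+/+ mouse 2 (0.0262) or p110αhep-/- mouse 4 (0.0232). None of the 6 genes passed either interaction, against 3.92% and 3.37% of all genes.

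HFD raised Pgd in p110αhep+/+ mice, by 1.38 times fed (0.46 ± 0.11 (SE), adjusted p = 0.00118) and 1.4 times fasted (0.48 ± 0.11 (SE), adjusted p = 0.00152). Fasted p110αhep+/+ mice had 9.77, 9.91 and 10.29 on HFD and 9.32, 9.47 and 9.69 on CTRL, without overlap. In p110αhep-/- mice the differences were -0.083 fed and -0.064 fasted (adjusted p = 0.744 and 0.803). The rise in fed p110αhep+/+ mice was uneven between washing batches, 0.86 and 0.20, and within the second batch it did not pass (adjusted p = 0.45). The rise in fasted mice did not pass within the first (0.46, adjusted p = 0.0903).

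Tkt, the transketolase of the non-oxidative branch, followed Pgd closely and spanned 4.10-fold between the same groups. Fed p110αhep+/+ mice on HFD were at 14.47, 14.66 and 14.79 and fed p110αhep-/- mice on HFD at 12.82, 13.35 and 13.52, without overlap, a 2.49-fold difference (-1.31 ± 0.11 (SE), adjusted p = 2.04e-12). On CTRL the fed groups were at 13.87, 14.21 and 14.48 and 13.52, 13.72 and 13.82, again without overlap, and Tkt was 1.5 times lower in p110αhep-/- mice (-0.58 ± 0.11 (SE), adjusted p = 0.000155).

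After fasting, Tkt was 2.01 times lower in p110αhep-/- mice on HFD (-1.005 ± 0.12 (SE), adjusted p = 5.04e-09), with mice at 12.32, 12.64 and 12.85 against 13.22, 13.61 and 13.88. On CTRL the fasted genotypes overlapped and the difference of -0.27 missed the threshold (adjusted p = 0.062, 95% interval -0.48 to -0.054), although p110αhep-/- mice were lower on 6 of 6 slides. That difference passed without p110αhep+/+ mouse 5 (adjusted p = 0.00846) or 6 (0.0456) or p110αhep-/- mouse 3 (0.0311), and with a replicate block (0.044).

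HFD moved Tkt in opposite directions in fed mice. It rose by 1.29 times in p110αhep+/+ mice (0.37 ± 0.11 (SE), adjusted p = 0.00921) and fell by 1.29 times in p110αhep-/- mice (-0.37 ± 0.12 (SE), adjusted p = 0.0331), higher on 6 of 6 slides in the first and lower on 6 of 6 in the second. In fasted mice it rose by 1.53 times in p110αhep+/+ mice (0.61 ± 0.11 (SE), adjusted p = 8.43e-05), and in p110αhep-/- mice the difference was -0.12 (adjusted p = 0.585). The fall in fed p110αhep-/- mice was kept in 5 of 12 fits that left out 1 mouse (adjusted p up to 0.0779) and lost without CTRL mouse 3, 4, 5 or 6 or HFD mouse 3, 4 or 6; it was also lost with no filter on dim probes (0.0545) and within either washing batch (-0.28, 0.154, and -0.54, 0.234). The rise in fed p110αhep+/+ mice was uneven between washing batches, 0.60 and 0.21, and within the second batch it did not pass (0.19, adjusted p = 0.576). With the median over the probes of Tkt, neither passed (0.11, 0.244, and -0.20, 0.0812).

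Fasting lowered Tkt by 2.44 times (-1.28 ± 0.11 (SE), adjusted p = 1.52e-12) in p110αhep+/+ mice on CTRL and by 2.06 times (-1.04 ± 0.10 (SE), adjusted p = 2.16e-10) in those on HFD. In p110αhep-/- mice it fell by 1.96 times (-0.97 ± 0.11 (SE), adjusted p = 1.88e-09) on CTRL and 1.66 times (-0.73 ± 0.12 (SE), adjusted p = 1.17e-05) on HFD. Only the last comparison had overlapping groups, and it was uneven between washing batches, with differences of means of -0.92 and -0.41 and no call within the second (-0.45, adjusted p = 0.139). A second probe for Tkt that passed the filter, well above background on 31 of 48 arrays, passed no test, and another was above background on 1 array.

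Taldo1, the transaldolase, spanned 2.45-fold over the 8 groups, with a median SD of 0.12 within groups, and the genotypes did not overlap in any of the 4 comparisons. The fed mice on HFD were at 14.94, 15.03 and 15.10 in p110αhep+/+ and 14.06, 14.24 and 14.35 in p110αhep-/- mice, a 1.69-fold difference (-0.75 ± 0.070 (SE), adjusted p = 2.08e-11). The fasted mice on HFD were at 14.52, 14.67 and 14.98 and 13.61, 13.77 and 13.94, a 1.94-fold difference (-0.96 ± 0.072 (SE), adjusted p = 7.64e-14). On CTRL, Taldo1 was 1.45 times lower in fed (-0.54 ± 0.070 (SE), adjusted p = 1.87e-07) and 1.37 times lower in fasted p110αhep-/- mice (-0.45 ± 0.067 (SE), adjusted p = 2e-06).

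HFD raised Taldo1 in p110αhep+/+ mice by 1.33 times fed (0.41 ± 0.066 (SE), adjusted p = 9.89e-06) and 1.49 times fasted (0.58 ± 0.067 (SE), adjusted p = 1.16e-07), each time without overlap. In p110αhep-/- mice it was 0.20 fed (adjusted p = 0.0733, passing without CTRL mouse 1 or 4 or HFD mouse 3, with 0.0306, 0.0377 and 0.0436, and with normexp background correction, 0.0299) and 0.071 fasted (0.615).

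Fasting lowered Taldo1 less than Pgd or Tkt in each setting as measured, by 1.35 and 1.21 times in p110αhep+/+ mice on CTRL and HFD (-0.44, adjusted p = 2.27e-06, and -0.27, 0.00135) and by 1.27 and 1.39 times in p110αhep-/- mice (-0.35, 8.69e-05, and -0.48, 5.89e-06). The difference between genes was not tested. With the processed signal the fall in p110αhep+/+ mice on HFD was -0.15 and did not pass (adjusted p = 0.0548), nor did it within either washing batch (-0.24, 0.179, and -0.28, 0.0647), and that on CTRL did not pass within the first (-0.32, 0.0681). A second probe for Taldo1 had the same sign in 18 of 18 comparisons and passed in the same 11.

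The response of Pgd and Tkt to HFD differed between genotypes in both states, and that of Taldo1 in the fasted state. The genotype by diet interaction, the HFD effect in p110αhep-/- mice minus that in p110αhep+/+ mice, passed for 2 of the 6 genes in the fed state (background 2.83%) and for 3 in the fasted state (background 4.96%), all below 0. For Tkt it was -0.74 ± 0.16 (SE) in fed mice (adjusted p = 0.00632) and -0.74 ± 0.16 in fasted mice (0.00433). For Pgd it was -0.55 ± 0.16 (adjusted p = 0.0484) and -0.55 ± 0.16 (0.0351). The fed and fasted values come from different mice, and the plain differences of group means were -0.83 and -0.65 in fed and fasted mice for Tkt and -0.62 and -0.57 for Pgd. For Taldo1 it was -0.51 ± 0.10 in fasted mice (adjusted p = 0.00197) and -0.22 in fed mice, which did not pass (0.242). Each of the 5 called values was below 0 on 6 of 6 slides.

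Tkt and Taldo1 kept these calls in every fit that left out 1 mouse (24 of 24 each). Pgd lay close to the threshold: its call was kept in 8 of 24 such fits in the fed state (-0.63 to -0.45, adjusted p up to 0.113) and 13 of 24 in the fasted state (-0.60 to -0.49, up to 0.0716). In the fed state it was lost without p110αhep+/+ CTRL mouse 2, 4, 5 or 6, p110αhep+/+ HFD mouse 1, 2 or 6, p110αhep-/- CTRL mouse 1, 3, 4 or 5 or p110αhep-/- HFD mouse 1, 2, 3, 4 or 6; in the fasted state without p110αhep+/+ CTRL mouse 4, 5 or 6, p110αhep+/+ HFD mouse 1, 2 or 4, p110αhep-/- CTRL mouse 3 or 6 or p110αhep-/- HFD mouse 3, 5 or 6. With no filter on dim probes and without array weights the call of Pgd was lost in both states (0.111 and 0.0538 fed, 0.0711 and 0.0551 fasted), and in the fed state in 6 further fits. That of Tkt in fed mice was lost with the median over its probes (-0.31, adjusted p = 0.0826). The 3-mouse fits within a washing batch gave -0.66 and -0.54 (fed) and -0.48 and -0.61 (fasted) for Pgd, none of which passed. Of the 6 interactions called over both batches, that of Tkt in fed mice passed within the first batch and none passed within the second.

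**Figure D2:**
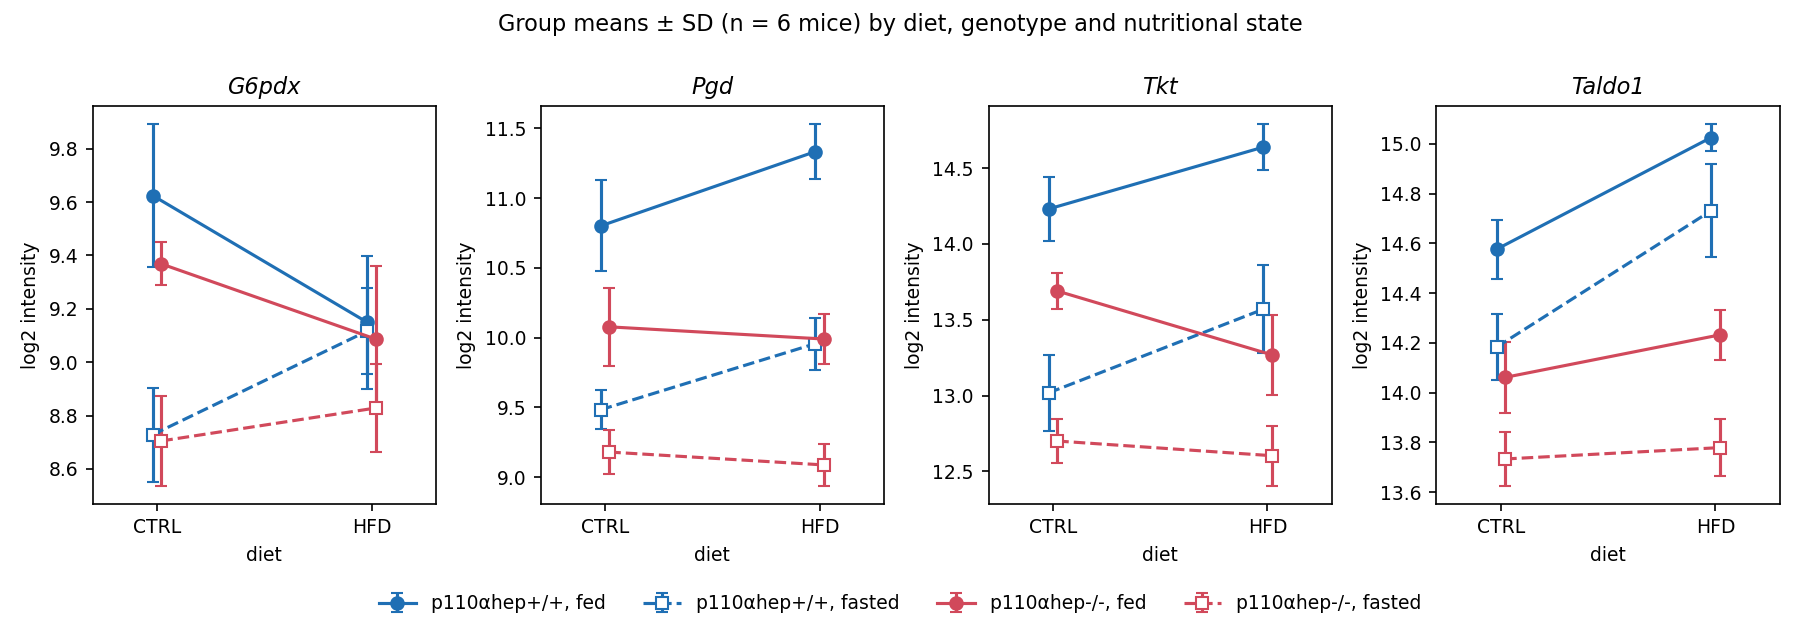
Group means ± SD of 6 mice (log2 intensity, vertical axes scaled for each gene) on CTRL and HFD, with p110αhep+/+ mice in blue, p110αhep-/- mice in red, fed mice as solid lines and fasted mice as dashed lines. For Pgd, Tkt and Taldo1 the blue lines rise with HFD and the red fed line of Tkt falls; for G6pdx the fed and fasted blue lines meet on HFD.

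H6pd, the enzyme of the endoplasmic reticulum, rose in 4 comparisons, in each of which Pgd and Tkt were lower. In p110αhep+/+ mice it rose with fasting by 1.51 times on CTRL (0.59 ± 0.11 (SE), adjusted p = 3.13e-05) and 1.45 times on HFD (0.54 ± 0.10 (SE), adjusted p = 9.59e-05), from 13.49, 13.54 and 13.76 to 13.88, 14.10 and 14.50 and from 13.42, 13.60 and 13.81 to 13.97, 14.15 and 14.40. Fed and fasted mice did not overlap on either diet. In p110αhep-/- mice the fasting differences were 0.20 and 0.18 (adjusted p = 0.151 and 0.299), the first of which passed without fasted CTRL mouse 1 (0.0486) and in 5 other fits (adjusted p between 0.0247 and 0.0464: slide as a block, replicate block, processed signal, median scaling and no array weights), and the genotype by fasting interactions did not pass (-0.39 and -0.36, adjusted p = 0.154 and 0.236).

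Fed p110αhep-/- mice had more H6pd mRNA than fed p110αhep+/+ mice, by 1.26 times on CTRL (0.33 ± 0.11 (SE), adjusted p = 0.0297) and 1.33 times on HFD (0.41 ± 0.11 (SE), adjusted p = 0.00358), with ranges that overlapped. Fasted mice of the 2 genotypes differed by -0.059 and 0.054 (adjusted p = 0.741 and 0.751), and HFD changed H6pd in none of its 4 comparisons (differences between -0.014 and 0.13). The rise in fed p110αhep-/- mice on CTRL was kept in 7 of 12 fits that left out 1 mouse and lost without p110αhep+/+ mouse 1 or 3 or p110αhep-/- mouse 3, 5 or 6 (adjusted p up to 0.109), and it was 0.29 with an adjusted p of 0.0802 without array weights, and was lost with no filter on dim probes (0.0813) and within either washing batch (0.216 and 0.214). The rise on HFD was lost within the second batch (0.34, adjusted p = 0.15).

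**Figure D3:**
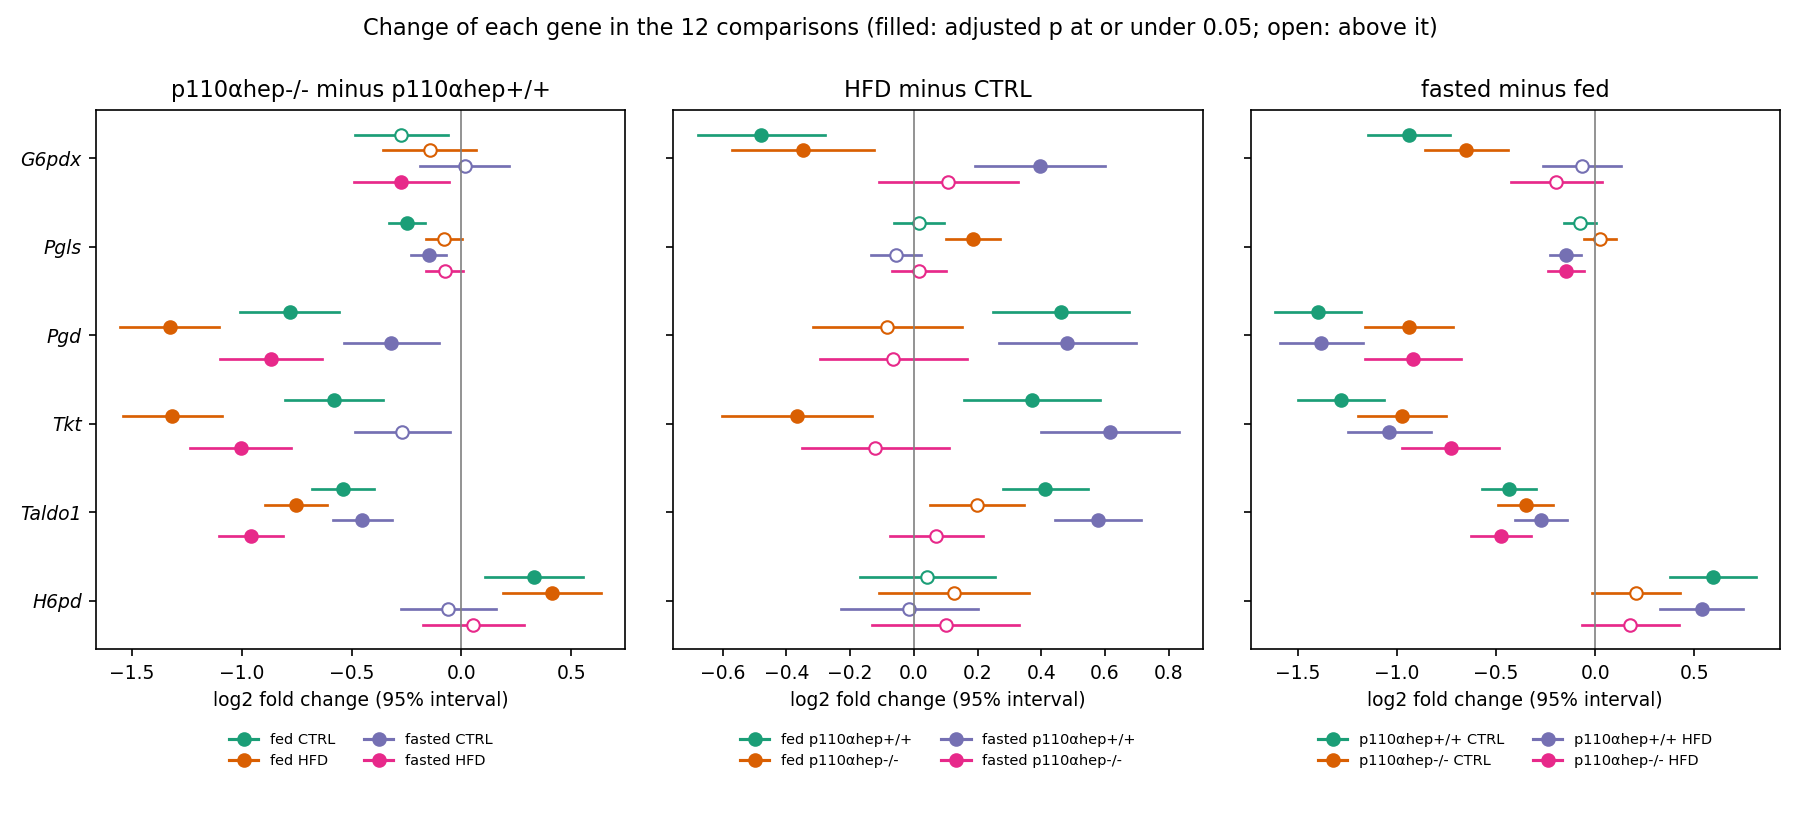
Log2 fold change with its 95% interval (horizontal axes, which differ between panels) of each gene for the 4 comparisons of genotype, of diet and of nutritional state; filled points have an adjusted p of 0.05 or less. Pgd, Tkt and Taldo1 lie below 0 in all 4 fasting comparisons, where H6pd lies above 0.

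Ordered by mean level, fed p110αhep+/+ mice on HFD came first for Pgd (11.33 ± 0.20, mean ± SD, n = 6), Tkt (14.64 ± 0.15), Taldo1 (15.03 ± 0.054) and Pgls (15.19 ± 0.048). For Pgd the next were fed p110αhep+/+ mice on CTRL (10.80 ± 0.33), then fed p110αhep-/- mice on CTRL (10.08 ± 0.28) and HFD (9.99 ± 0.18) and fasted p110αhep+/+ mice on HFD (9.96 ± 0.19), which did not differ beyond their spread. Below a step without overlap came fasted p110αhep+/+ mice on CTRL (9.48 ± 0.14) and fasted p110αhep-/- mice on CTRL (9.18 ± 0.16) and HFD (9.09 ± 0.15), the last 2 within their spread.

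For Tkt, the only neighbours that did not overlap were fed p110αhep+/+ mice on CTRL (14.23 ± 0.21) and fed p110αhep-/- mice on CTRL (13.69 ± 0.12). Fasted p110αhep+/+ mice on HFD (13.57 ± 0.29) and fed p110αhep-/- mice on HFD (13.27 ± 0.27) came next, followed by the fasted p110αhep+/+ CTRL (13.02 ± 0.25), p110αhep-/- CTRL (12.70 ± 0.15) and p110αhep-/- HFD groups (12.60 ± 0.20).

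For Taldo1 the 3 highest groups were all p110αhep+/+: the second place went to fasted p110αhep+/+ mice on HFD (14.73 ± 0.19), and a gap without overlap separated fed p110αhep+/+ mice on CTRL (14.58 ± 0.12) from fed p110αhep-/- mice on HFD (14.23 ± 0.10). The fasted p110αhep+/+ CTRL (14.18 ± 0.13), fed p110αhep-/- CTRL (14.06 ± 0.14), fasted p110αhep-/- HFD (13.78 ± 0.11) and fasted p110αhep-/- CTRL groups (13.73 ± 0.11) followed.

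G6pdx was highest in fed p110αhep+/+ mice on CTRL (9.62 ± 0.27) and lowest in fasted p110αhep-/- mice on CTRL (8.71 ± 0.17), a 1.89-fold span, and all 7 pairs of neighbours overlapped, as they did for Pgls and H6pd. H6pd was lowest in fed p110αhep+/+ mice on CTRL (13.57 ± 0.10) and on HFD (13.60 ± 0.14) and highest in fasted p110αhep-/- mice on HFD (14.21 ± 0.21), a 1.56-fold span in which the 4 fasted groups differed by less than their spread.

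Mouse by mouse, Pgd and Tkt had their high and low values together. Their Pearson correlation over the 48 mice was 0.96, and 0.63 after the group means were removed; the mice share treatments and arrays, so these values are descriptions. Pgd with Taldo1 gave 0.86 and 0.68, and Tkt with Taldo1 0.85 and 0.57. G6pdx correlated at 0.65 with Pgd and 0.66 with Tkt, and at 0.32 and 0.23 within groups. H6pd correlated negatively with Pgd (-0.73) and Tkt (-0.76), and less so within groups (-0.20 and -0.40). For Pgls the correlations with Pgd, Tkt and Taldo1 were 0.58, 0.56 and 0.63, but lay between -0.083 and 0.10 once the group means were removed.

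Among the 20453 other genes searched, the 3 with the highest correlation with each gene over the 48 mice were named. For G6pdx they were Scd2 (0.82), a stearoyl-CoA desaturase, Elovl1 (0.80), a fatty acid elongase, and Vegfb (0.79). For Pgd they were the predicted gene Gm30692 (0.96), Tbc1d31 (0.94) and Echdc1 (0.94), an ethylmalonyl-CoA decarboxylase, and for Tkt Gm30692 (0.96), Cyb5b (0.94), the outer mitochondrial cytochrome b5, and a transcript listed only by an Ensembl identifier (0.94). Taldo1 was nearest to Uchl4 (0.94), Smarca4 (0.93) and Myl12b (0.93), Pgls to Atp5g3 (0.83), Anapc13 (0.81) and Dnajc19 (0.80), and H6pd to Sun2 (0.86), Nbr1 (0.84) and Tbc1d15 (0.83).

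**Figure D4:**
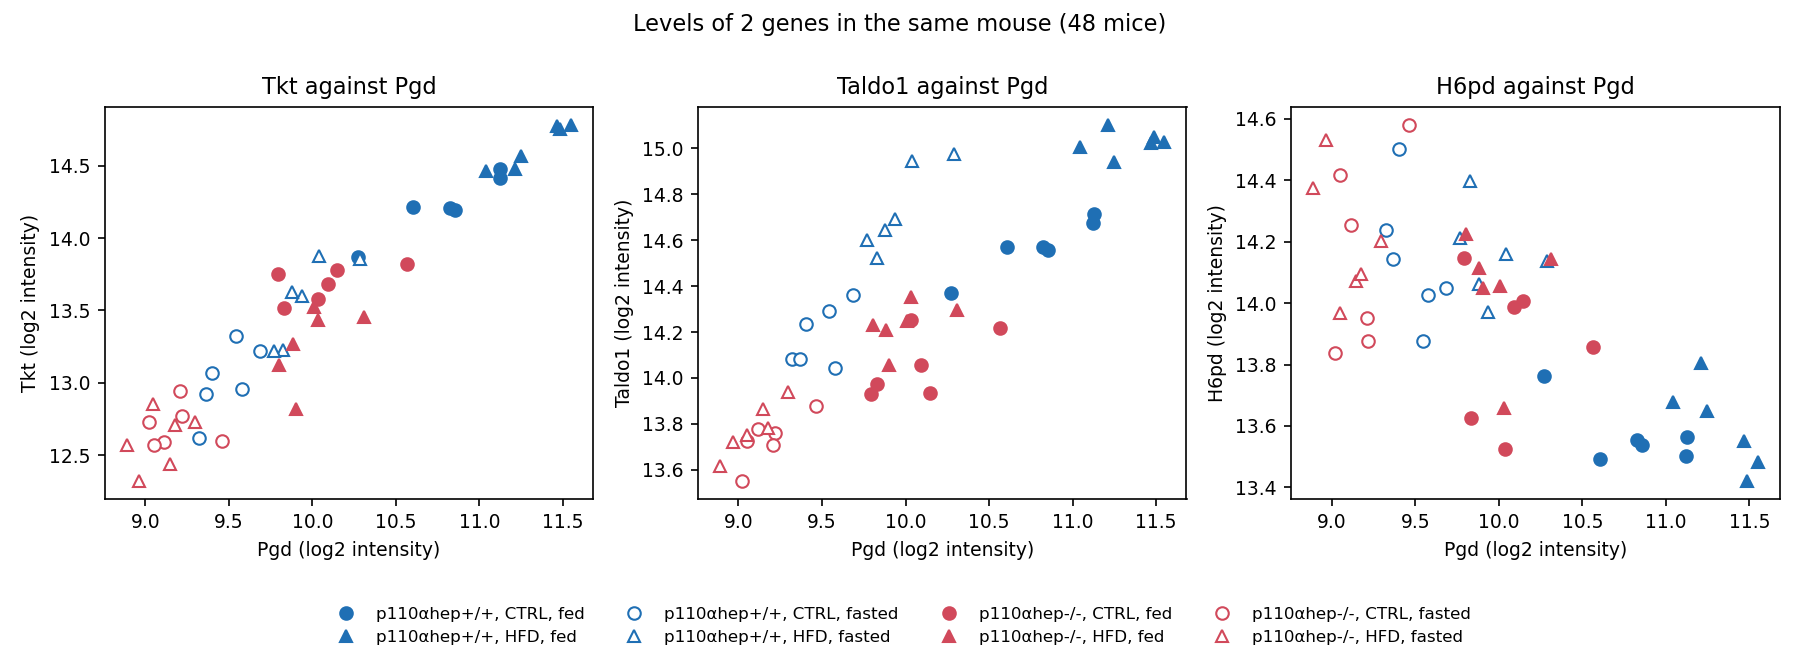
Log2 intensity of Tkt, Taldo1 and H6pd (vertical axes) against Pgd (horizontal axes) in each of 48 mice, with p110αhep+/+ mice in blue, p110αhep-/- mice in red, HFD as triangles and fasted mice as open symbols. Tkt lies along 1 line over all groups (Pearson correlation 0.96), fasted p110αhep+/+ mice on HFD have Taldo1 at 14.52 to 14.98, above the fed p110αhep-/- mice with Pgd in the same range, and H6pd is lower where Pgd is higher (-0.73).

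Of 11 further genes of pentose phosphate metabolism, 8 had a probe that passed the filter; Tktl1, Tktl2 and G6pd2, relatives of Tkt and G6pdx, did not. Between genotypes, 5 of the 8 passed in fed mice on CTRL (1 higher and 4 lower in p110αhep-/- mice, background 21.5%; median log2 fold change -0.16, against 0.018 over all genes), 6 in fed mice on HFD (2 higher, 4 lower, background 32.9%; -0.23 against 0.031), 4 in fasted mice on CTRL (1 higher, 3 lower, background 24.8%; -0.13 against 0.007) and 6 in fasted mice on HFD (1 higher, 5 lower, background 36.8%; -0.19 against 0.033).

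Rpia, the ribose 5-phosphate isomerase that links both branches, had the largest of these changes between genotypes in fed mice, -0.69 (SE 0.12, adjusted p = 3.31e-05) on CTRL and -1.10 (SE 0.12, adjusted p = 1.25e-09) on HFD. It also fell with fasting in p110αhep+/+ mice (-1.297 on CTRL and -1.37 on HFD, log2 scale, adjusted p = 8.24e-12 and 7.19e-13), and less in p110αhep-/- mice (-0.59 and -0.41), with a genotype by fasting interaction of 0.71 (SE 0.17, adjusted p = 0.0102) and 0.96 (SE 0.17, adjusted p = 0.000567). The fed means of Rpia on CTRL and HFD were 8.18 and 8.31 in p110αhep+/+ and 7.57 and 7.20 in p110αhep-/- mice. All 4 fasted means lay between 6.84 and 6.97. Whether so low a signal limited the fall was not tested. Dera, deoxyribose-phosphate aldolase, was lower in fasted p110αhep-/- mice on HFD (-0.40 (SE 0.077, adjusted p = 7.07e-05)). The mean of Dera was also lower in p110αhep-/- mice in the other comparisons of genotype. It was 9.01 against 9.34 in fed mice on CTRL, 8.98 against 9.33 in fed mice on HFD and 8.95 against 9.25 in fasted mice on CTRL. Shpk, the sedoheptulose kinase, fell with fasting in all 4 settings (-0.41 and -0.35 in p110αhep+/+ mice and -0.37 and -0.35 in p110αhep-/- mice). Diet left most of the 8 below the threshold, with 2, 1, 0 and 1 passing in the fed p110αhep+/+, fed p110αhep-/-, fasted p110αhep+/+ and fasted p110αhep-/- comparisons (background 24.1%, 12.2%, 15.9% and 10.8%), and medians between -0.026 and 0.045.

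With fasting, 2 of the 8 passed in p110αhep+/+ mice on CTRL (both lower, background 32.5%; median -0.063), 5 in p110αhep-/- mice on CTRL (1 higher, 4 lower, background 35.4%; -0.13), 3 in p110αhep+/+ mice on HFD (1 higher, 2 lower, background 28.4%; -0.070) and 3 in p110αhep-/- mice on HFD (1 higher, 2 lower, background 28.5%; -0.10), with medians over all genes between -0.001 and 0.004.

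Of 7 other enzymes that yield NADPH, 6 were measured. Me1, the cytosolic malic enzyme, had the largest of these differences: it was lower in p110αhep-/- mice in all 4 comparisons, with -2.82 (SE 0.24, adjusted p = 1.67e-12) in fed mice on HFD and -1.22 (SE 0.24, adjusted p = 0.000174) on CTRL, and it shared the negative genotype by diet interaction with Tkt and Pgd (-1.60 (SE 0.33, adjusted p = 0.00519) fed and -1.20 (SE 0.33, adjusted p = 0.029) fasted). Between genotypes in fed mice on CTRL the isocitrate dehydrogenase genes moved less, Idh1 by -0.27 and Idh2 by 0.29. The genotype by diet interaction passed for Me1 alone in fed mice (background 2.83%) and for Idh1 and Me1 in fasted mice (background 4.96%), all below 0. Over the 6, the counts of genes higher and lower in p110αhep-/- mice were 1 and 2 (fed CTRL), 0 and 1 (fed HFD), 2 and 2 (fasted CTRL) and 1 and 3 (fasted HFD), with medians between -0.10 and 0.007, when 21.5%, 32.9%, 24.8% and 36.8% of all genes passed. With fasting none rose and 3, 2, 4 and 3 fell in p110αhep+/+ CTRL, p110αhep-/- CTRL, p110αhep+/+ HFD and p110αhep-/- HFD mice, with medians between -0.24 and -0.073, when 32.5%, 35.4%, 28.4% and 28.5% of all genes passed. With HFD 2 rose in fed p110αhep+/+ mice (median 0.12), 2 rose and 1 fell in fed p110αhep-/- mice (0.18), 1 rose in fasted p110αhep+/+ mice (0.18) and 0 passed in fasted p110αhep-/- mice (0.030); the background in these was 24.1%, 12.2%, 15.9% and 10.8%. Over all genes the medians lay between 0.007 and 0.033 in the comparisons of genotype, between -0.018 and -0.001 in those of diet and between -0.001 and 0.004 in those of fasting.

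Of 7 enzymes that use NADPH, all measured, Fasn, the fatty acid synthase, changed most. It fell with fasting in all 4 settings (-4.47 and -4.14 on the log2 scale in p110αhep+/+ mice on CTRL and HFD, -3.73 and -2.30 in p110αhep-/- mice), and it was lower in fed p110αhep-/- mice on HFD (-2.63 (SE 0.20, adjusted p = 6.71e-14)). In fed mice its genotype by diet interaction was -1.90 (SE 0.28, adjusted p = 6.33e-05). Por, the cytochrome P450 reductase of the endoplasmic reticulum, went the other way. It rose with fasting in all 4 settings (1.03 and 1.11 in p110αhep+/+, 1.08 and 1.01 in p110αhep-/- mice). It was higher in fed p110αhep-/- mice (0.41 (SE 0.13, adjusted p = 0.0163) on CTRL and 0.74 (SE 0.13, adjusted p = 1.35e-05) on HFD). In the fasted state Por was higher in p110αhep-/- mice too, with means of 16.70 against 16.23 on CTRL and 16.83 against 16.17 on HFD. Nqo1, a quinone reductase, was lower in fed p110αhep-/- mice on HFD (-0.98 (SE 0.18, adjusted p = 2.72e-05)) and higher with HFD in fed p110αhep+/+ mice (0.58).

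Over the 7 NADPH users, the genes higher and lower in p110αhep-/- mice numbered 1 and 2, 1 and 3, 2 and 0, and 2 and 2 in the 4 comparisons of genotype in the same order, with medians between -0.091 and 0.038 (background 21.5%, 32.9%, 24.8% and 36.8%). With fasting 1 rose in each setting and 1, 2, 3 and 2 fell (p110αhep+/+ CTRL, p110αhep-/- CTRL, p110αhep+/+ HFD, p110αhep-/- HFD, background 32.5%, 35.4%, 28.4% and 28.5%; medians between -0.20 and 0.10). With HFD 2 rose in fed and 2 in fasted p110αhep+/+ mice, and 1 rose and 1 fell in fed and in fasted p110αhep-/- mice (background 24.1%, 15.9%, 12.2% and 10.8% in this order; medians between -0.057 and 0.11).

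**Figure D5:**
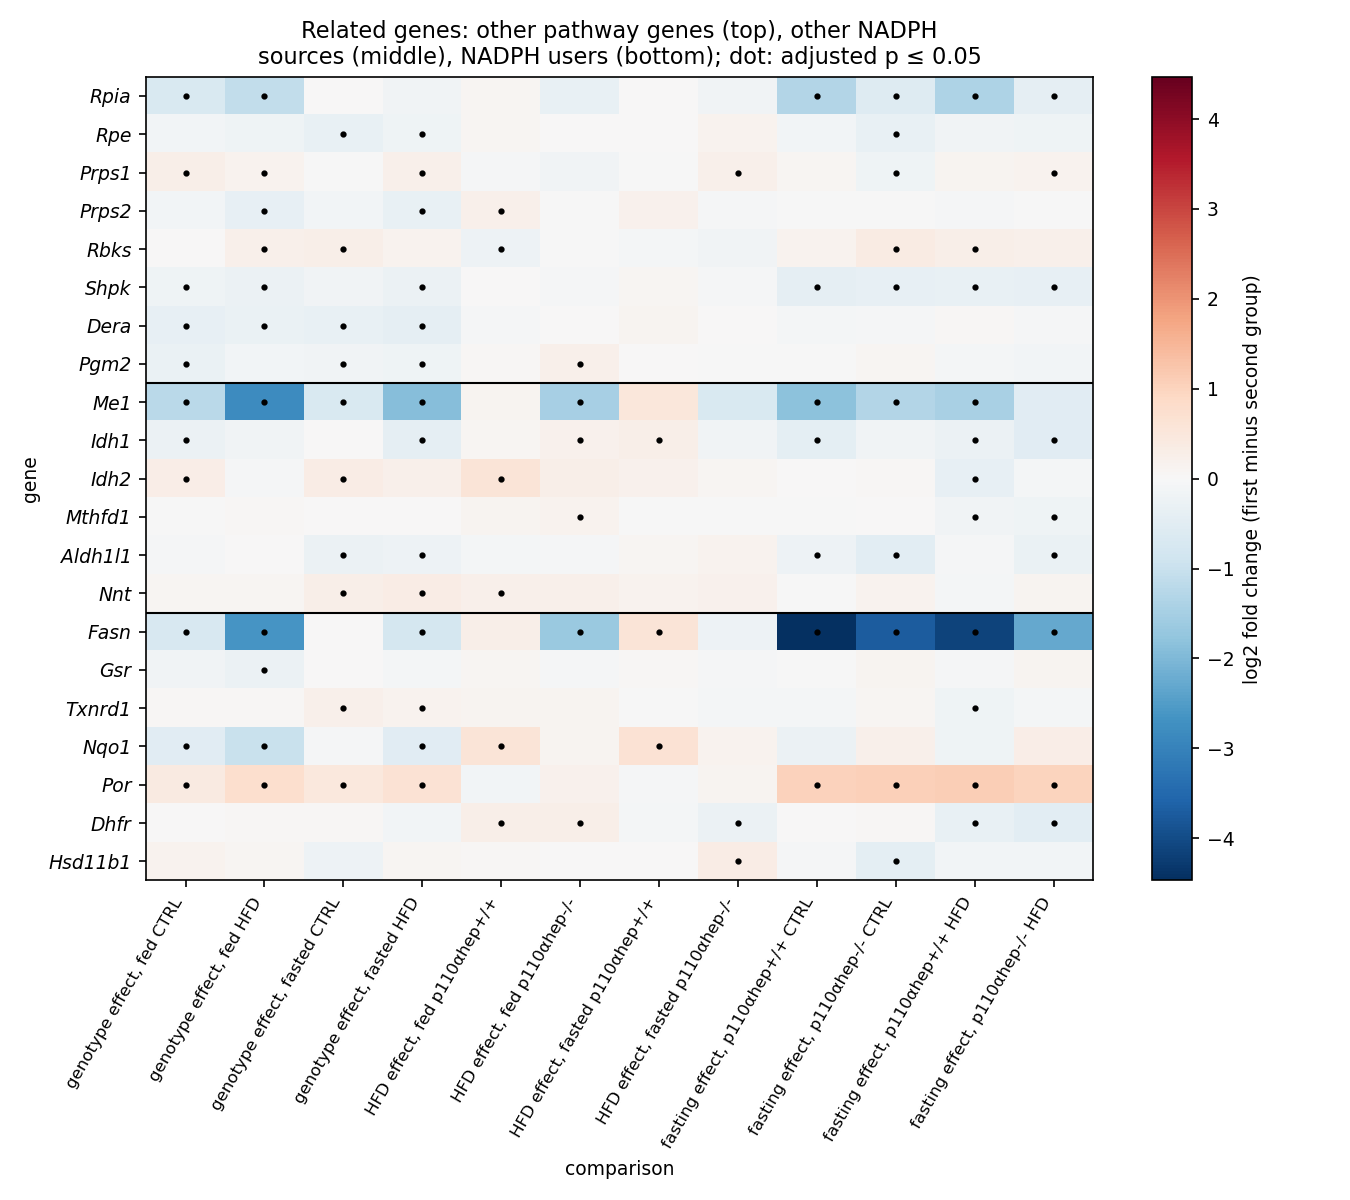
Log2 fold change (colour) of the measured genes of the 3 lists (rows) in the 12 comparisons (columns), with dots at an adjusted p of 0.05 or less. Fasn, Me1 and Rpia are blue, lower in the first group, in the fasting comparisons and in fed mice between genotypes, and Por is red in both. Me1 did not pass with fasting in p110αhep-/- mice on HFD.

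Markers of other liver cells moved in some of these comparisons. Of 8 Kupffer cell or macrophage markers, all measured, none passed between genotypes in fed mice. In fasted p110αhep-/- mice Vsig4 was higher on both diets and Cd68 lower on HFD, and with HFD Cd68 rose in fasted p110αhep+/+ mice. The summed signal of these markers (log2) lay between 14.42 and 16.26 over all mice. Of 7 markers of other leucocytes, 6 were measured and Cd79a was not. Between genotypes Itgam was lower in p110αhep-/- mice in 3 of the 4 comparisons and S100a8 and S100a9 in fasted mice on HFD, while Ptprc was higher in p110αhep-/- mice on HFD in both states and Cd3e in fed mice on HFD. With HFD in p110αhep+/+ mice, S100a8 and S100a9 rose and Ptprc fell in both states, Cd3e fell in the fed state and Itgam rose in the fasted state, and in fasted p110αhep-/- mice Ly6g rose. With fasting Itgam fell in all 4 settings, Ptprc rose in p110αhep+/+ mice on both diets, Cd3e rose in p110αhep+/+ mice on HFD, Ly6g rose in p110αhep-/- mice on HFD, and the Kupffer cell marker Clec4f fell in p110αhep+/+ mice on HFD. The summed signal of the leucocyte markers had means of 12.58 and 12.37 in fed p110αhep+/+ and p110αhep-/- mice on CTRL, 12.73 and 12.58 in fed mice on HFD, 12.33 and 12.25 in fasted mice on CTRL, and 12.65 and 12.27 in fasted mice on HFD. The sum over 8 hepatocyte markers lay between 20.60 and 20.79 in all 48 mice, while within the list Cps1 and Ass1 were higher in p110αhep-/- mice in all 4 comparisons of genotype and Ttr and Apoc3 lower in 3. Some markers also passed an interaction. The genotype by diet interaction was below 0 for Cd68, S100a8 and S100a9 in fasted mice and above 0 for Cps1 in fed mice. The diet by fasting interaction in p110αhep-/- mice was above 0 for Ttr. The part of these cells in the differences of the 6 genes was not tested.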

How the data were processed

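Liver RNA of 48 mice was hybridised to 1-colour Agilent mouse arrays, 1 array per mouse. The scanner files deposited by the authors hold the intensity of each spot from Agilent Feature Extraction 10.10.1.1, not normalised. The table of log2 values deposited by the authors, filtered, corrected for washing batch and quantile normalised by them, served as an alternative. The steps of the study's methods were repeated on the median signals: log2, control and outlier spots left out, spots of a probe averaged, probes kept if well above background on 5 of 6 arrays of any group (30793 of 56605), washing batch removed with group means protected, and quantile normalisation. All 8 groups were fitted with limma 3.58.1 (R 4.3.3, statmod 1.5.0) with array weights and Benjamini–Hochberg adjustment across the 30793 probes.

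A gene is called at an adjusted p of 0.05 or less, by its brightest probe. Removing the batch before the fit leaves its cost out of the degrees of freedom, and quantile normalisation can hide a shift common to all genes. In data simulated for the fed CTRL comparison of genotype (30793 probes), 81 of 100 probes changed by 0.5 and 95 of 100 changed by 1 on the log2 scale were called, with 11 false calls. The simulated noise was independent between probes and arrays and held no batch, and batch removal and quantile normalisation were not run on it. These counts therefore check the fit alone and do not give the power or the error rate in the measured data. Precision is limited by how many arrays there are. The members (as a set) and lists were chosen with earlier results of these data known; their probes were matched by name alone. Named were the 6 members, from each related list up to 3 genes per comparison with the smallest adjusted p, and the 3 genes most like each member. Promoters came from RefSeq (GRCm38.p6, all 6 genes matched). A comparison of the proteins was planned and not made. Alternatives changed the signal, background, scaling, filter, batch, weights, arrays, probe and call rule, and left out each mouse.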

Additional observations from a re-analysis of the deposited data

Results flagged for a closer look

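In 3 of the 48 sets of 6 mice examined (6 genes in 8 groups), 1 mouse stood apart from the other 5 by Dixon's criterion at the 95% level, and chance alone gives such sets at a rate near that of the level. Pgls was 15.107 in fasted p110αhep-/- mouse 6 on HFD, when the others lay between 14.924 and 14.958. H6pd was 13.762 in fed p110αhep+/+ mouse 2 on CTRL, above the others at 13.494 to 13.563, and 13.658 in fed p110αhep-/- mouse 2 on HFD, below the others at 14.051 to 14.227.

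In 6 cases the effect of a factor differed between groups by the test of the interaction (limma, log2 scale). The response of G6pdx to fasting in p110αhep+/+ mice was 0.874 higher on HFD than on CTRL. The response of Tkt to HFD was lower in p110αhep-/- than in p110αhep+/+ mice, with an interaction of -0.736 fed and -0.736 fasted. The interaction of Pgd was -0.546 fed and -0.546 fasted, and that of Taldo1 was -0.506 in fasted mice.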

How the results depend on the processing

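Over all alternatives, leave-one-out fits included, 1332 of the values of genes called as reported kept the call and the direction, 166 lost the call and kept the direction, and 44 values not called as reported gained it. Of the 1911 that were called in neither fit, 102 changed sign. With a call in at least 1 of the fits, 3 values changed sign, all of Pgls with the median over its probes: 0.174 between genotypes in fed mice on HFD (adjusted p = 0.00493), 0.014 in fasted mice on CTRL, and 0.073 with fasting in p110αhep+/+ mice on HFD. Counts below are of the 6 genes, with the count as reported after "of", and only those that moved by over 1.5 times are given for settings other than the fold change. With a fold change over 1.5 required as well, the genotype comparisons gave 1 of 5 (fed CTRL), 3 of 4 (fed HFD), 0 of 3 (fasted CTRL) and 3 of 4 (fasted HFD), HFD gave 0 of 4 (fed p110αhep+/+), 0 of 3 (fed p110αhep-/-) and 1 of 4 (fasted p110αhep+/+), fasting gave 4 of 5 and 3 of 4 on CTRL and 2 of 5 and 2 of 4 on HFD (p110αhep+/+, p110αhep-/-), the genotype by diet interaction gave 1 of 2 fed and 1 of 3 fasted, and the diet by fasting interaction in p110αhep+/+ mice kept its 1. The fed genotype by diet interaction gave 1 of 2 with no filter on dim probes, with the washing batch not corrected or as a block, with the slide as a block, with a replicate block, without array weights, with only the groups compared and with the deposited log2 values. HFD in fed p110αhep-/- mice gave 1 of 3 with no filter. The diet by fasting interaction in p110αhep-/- mice, 0 as reported, gave 2 with the processed signal and 1 with normexp background, the slide as a block, the replicate block or only the groups compared. Normexp also gave 1 in each genotype by fasting interaction (CTRL and HFD), and the processed signal gave 3 of 5 for fasting in p110αhep+/+ mice on HFD. Within washing batch 1, of 3 mice per group, the counts were 3 of 5 (genotype, fed CTRL), 1 of 3 (genotype, fasted CTRL), 0 of 3 (HFD, fed p110αhep-/-), 2 of 4 (HFD, fasted p110αhep+/+), 3 of 5 (fasting, p110αhep+/+ HFD), 1 of 2 and 0 of 3 (genotype by diet, fed and fasted) and 0 of 1 (diet by fasting, p110αhep+/+). Within washing batch 2 they were 1 of 3 (genotype, fasted CTRL), 2 of 4 and 0 of 3 (HFD, fed p110αhep+/+ and p110αhep-/-), 3 of 5 and 2 of 4 (fasting on HFD, p110αhep+/+ and p110αhep-/-), 0 of 2 and 0 of 3 (genotype by diet) and 0 of 1 (diet by fasting, p110αhep+/+). These batch fits have fewer mice; for the other settings the cause was not tested.

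Leaving out 1 mouse, the counts ranged from 4 to 6, 4 to 4, 2 to 4 and 3 to 4 between genotypes (fed CTRL, fed HFD, fasted CTRL, fasted HFD), 4 to 4, 1 to 4, 4 to 4 and 0 to 0 with HFD (fed p110αhep+/+, fed p110αhep-/-, fasted p110αhep+/+, fasted p110αhep-/-), and 5 to 5, 4 to 5, 5 to 5 and 4 to 4 with fasting (p110αhep+/+ CTRL, p110αhep-/- CTRL, p110αhep+/+ HFD, p110αhep-/- HFD). They ranged from 1 to 2 and 2 to 3 for genotype by diet (fed, fasted), 0 to 1 and 0 to 0 for genotype by fasting (CTRL, HFD), and 1 to 1 and 0 to 1 for diet by fasting (p110αhep+/+, p110αhep-/-). Replicate numbers did not pair the mice: the correlation of same-numbered mice lay between -0.351 and 0.322 and exceeded 0.1 in 13 of 72 pairs, and 13 of 72 correlated best with their own number.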
